A study of Mus musculus with 5 samples.

Results

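The genes described here are 10 genes of MHC class I antigen presentation, chosen by symbol from the 24527 genes of the count table. They are the class I heavy chains H2-K1 and H2-D1, their partner B2m, the peptide transporter subunits Tap1 and Tap2, the loading factor Tapbp, the transactivator Nlrc5, and the immunoproteasome subunits Psmb8, Psmb9 and Psmb10. All 10 were in the table, and all 10 passed the filter on low counts that left 14612 genes for testing. Bulk RNA-seq had been performed on prostate tumor tissue from 3 castrated and 2 intact mice, each a separate sample. Both groups were TripleTg mice, with the alleles hHGFtg and H11 hMET/+ together with Ctnnb1 L(Ex3)/+ and PB Cre4. Human HGF is expressed in all tissues, and the probasin promoter drives the Cre that turns on human MET and a stabilized β-catenin in the prostate epithelium. Castrated mice were castrated at 4 months, intact mice were not castrated, and tissue of both groups was taken at 8 months of age. The comparison asks how tumors that grew after androgen loss differ from those of intact mice. Castrated replicates 1, 2 and 3 held 28015507, 18951782 and 20492061 counts, and intact replicates 1 and 2 held 21560355 and 22853501.

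MHC class I molecules show peptides from inside the cell to CD8 T cells. The proteasome cuts proteins into peptides, TAP1 and TAP2 carry these into the endoplasmic reticulum, and tapasin, the product of Tapbp, holds the empty class I molecule at the transporter while it is loaded. In interferon-exposed cells and in leukocytes, PSMB8, PSMB9 and PSMB10 take the place of the catalytic subunits PSMB5, PSMB6 and PSMB7, and NLRC5 acts on the promoters of class I genes. Nearly all nucleated cells carry class I molecules, while class II molecules are mostly found on antigen-presenting leukocytes. In bulk tissue, fewer cells of a type and less RNA per cell cannot be told apart.

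The tissue label was checked against marker genes before the comparison. The epithelial keratin gene Krt8 was between 659 and 1150 CPM (counts scaled to the library total, with libraries scaled by TMM, a trimmed mean of log ratios) in all 5 samples. Of the prostate secretory genes, Msmb was at 0 in every sample. Intact replicate 2 stood apart. The secreted defensin gene Defb50 was at 64.2 CPM there and at most 0.139 CPM in the other 4 samples, and the probasin gene Pbsn was at 5.19 CPM there and at most 0.452 CPM elsewhere. The log2 fold changes of the 10 genes are therefore also given without this sample, as are counts or medians of most gene lists.

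H2-K1, H2-D1 and B2m carry the same pair of short sequences upstream of their start, which are shown here because NLRC5 is known to act through promoter elements of this kind. Upstream windows of 250 bases were taken from RefSeq (GRCm38.p6, the build called mm10) for 8 of the 10 genes. Tap2 and Nlrc5 had no entry. The letters TGACG followed after 20 bases by ATTGG, searched on both strands, were found upstream of H2-K1, H2-D1 and B2m. Of all 32851 windows of this length, 0.0913% held the pair. The letters and their spacing were chosen after reading these promoters, so their presence in the 3 genes is a description. The elements are printed 5′ to 3′ in the orientation of the gene, with the 2 matched words in capitals, from chr17:34000359-34000388 (minus strand) for H2-K1, chr17:35262993-35263022 (plus strand) for H2-D1 and chr2:122147609-122147638 (plus strand) for B2m.
H2-K1: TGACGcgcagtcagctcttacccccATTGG
H2-D1: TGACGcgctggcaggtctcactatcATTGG
B2m: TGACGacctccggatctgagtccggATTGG

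Between the matched words, H2-K1 and H2-D1 were identical at 13 of 20 bases. B2m, which lies on another chromosome, was identical to H2-K1 at 3 and to H2-D1 at 2 of these bases. In GENCODE, an exon of another H2-D1 transcript spans the H2-D1 element, and no exon spans those of H2-K1 and B2m. A longer stretch of the H2-K1 and B2m promoters is printed with only exact matches marked. It runs from 130 to 11 bases upstream of each start, at chr17:34000358-34000477 (minus strand) and chr2:122147557-122147676 (plus strand), with matched words in capitals.
H2-K1: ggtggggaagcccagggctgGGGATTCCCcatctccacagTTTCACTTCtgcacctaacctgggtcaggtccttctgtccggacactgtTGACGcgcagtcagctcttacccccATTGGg
B2m: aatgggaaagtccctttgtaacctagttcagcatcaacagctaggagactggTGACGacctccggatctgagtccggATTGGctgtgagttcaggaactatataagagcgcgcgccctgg

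Upstream of H2-K1 the word GGGATTCCC, of the kind bound by NF-κB, and a match to GAANNGAAA on the reverse strand, of the kind bound by interferon regulatory factors, precede the pair. Both also occur upstream of H2-D1, and neither occurs with these exact letters in the B2m window. These words were also chosen after the promoters had been read, and variants of them were not searched. The B2m window holds the similar letters GGAAAGTCCC and GAAACTGAAA, so it was not shown to lack sites of either kind. Of all windows, 0.301% held GGGATTCCC and 6.31% held GAANNGAAA, on either strand. None of the 3 patterns was found in the windows of Tap1, Tapbp, Psmb8, Psmb9 and Psmb10.

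Among the 14612 genes tested with edgeR's quasi-likelihood test, 0 (0%) had an adjusted p under 0.05 with an absolute log2 fold change over 1, and so 0 of the 10 class I genes did. The smallest adjusted p of any gene was 0.289. DESeq2 called 989 genes, and 0 of the class I genes. At an unadjusted p under 0.05, 2195 genes differed. This threshold was met by 8.74% of all genes tested as higher after castration and by 6.28% as lower. Of the class I genes, 4 of 10 were higher at this threshold (H2-K1, H2-D1, Tap1 and Tap2) and 0 were lower. This count was 5 without castrated replicate 1 (where 10.7% of all genes were higher), 2 without castrated replicate 2 (4.95%), 1 without castrated replicate 3 (4.42%), 2 without intact replicate 1 (12.2%) and 5 without intact replicate 2 (8.10%). H2-D1 lost this threshold without either intact replicate, and H2-K1 without castrated replicate 2 or castrated replicate 3, and in edgeR's likelihood ratio test H2-D1 and Tap2 met it. The log2 fold change was above 0 in all 10, against 47.9% of all genes, and its median was 0.68, against -0.03 over all genes. Every castrated sample was above both intact samples for 6 of the 10, where 17.0% of all genes had this order, and the reverse order, found in 16.1% of all genes, was held by 0 of the 10.

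**Figure D1:**
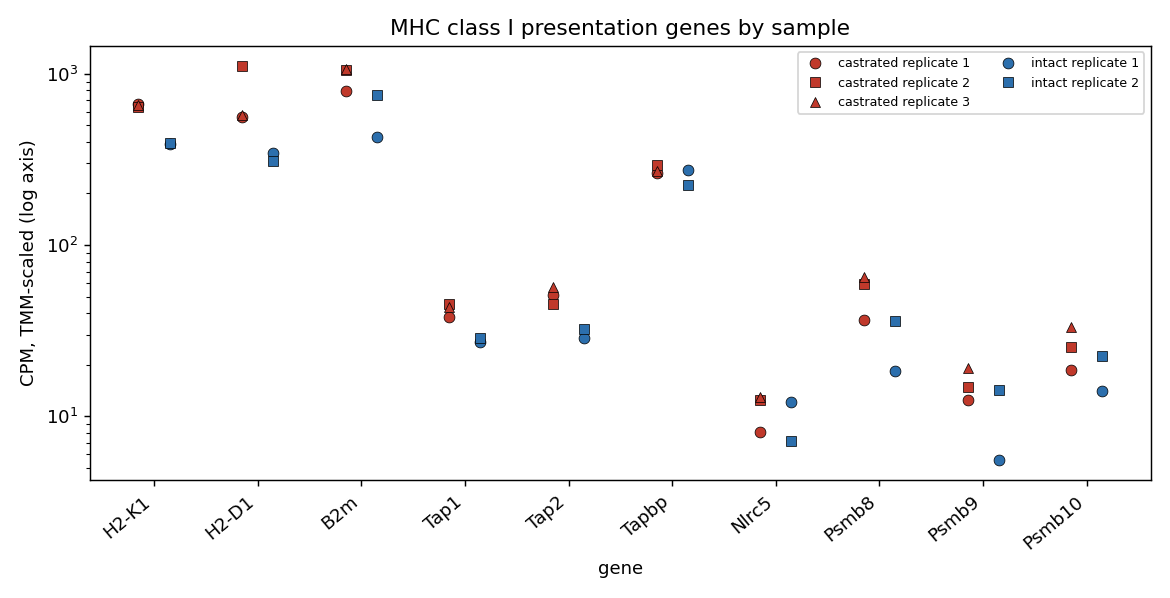
CPM on a log axis for each of the 10 genes, with 1 point per sample, castrated samples in red and intact samples in blue. The groups are separate for H2-K1, H2-D1, B2m, Tap1 and Tap2, touch for Psmb8, and overlap for Tapbp, Nlrc5, Psmb9 and Psmb10.

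The class I heavy chains were higher in castrated samples at an unadjusted p. H2-K1 (chr17:33996012-34000347, minus strand), which encodes the classical K heavy chain, was at 662, 643 and 658 CPM in castrated replicates 1, 2 and 3, and at 387 and 394 CPM in intact replicates 1 and 2. The samples of each group lay close together, with no overlap between groups. The difference was 1.68-fold, a log2 fold change of 0.74 (SE 0.22, n = 3 and 2), with an edgeR unadjusted p of 0.0191 and adjusted p of 0.297. Its log2 fold change stayed between 0.74 and 0.77 when each replicate was left out, and was 0.76 without intact replicate 2.

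H2-D1 (chr17:35263094-35267497, plus strand), which encodes the classical D heavy chain, had the largest log2 fold change of the 10 genes with all samples. It was at 562, 1114 and 576 CPM in castrated replicates 1, 2 and 3, and at 347 and 310 CPM in the intact replicates. Castrated replicate 2 was far above the other castrated samples, and all 3 were above both intact samples. Its log2 fold change was 1.19 (SE 0.41), with an edgeR unadjusted p of 0.0302 and adjusted p of 0.309, and without castrated replicate 2 it was the lowest of the leave-one-out values, 0.80. Without intact replicate 2 it was 1.12, below the values of Psmb8 (1.54), Psmb9 (1.49) and B2m (1.18). The order of the heavy chains also turned in castrated replicate 2. The ratio of H2-K1 to H2-D1 in TPM, a level that also corrects for gene length, was 0.604 in castrated replicate 2 and between 1.17 and 1.33 in the other 4 samples.

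Several of the 10 genes share sequence with other transcripts, so that the assignment of their reads is uncertain. Of all 50-base words in the Tapbp transcript, 21.0% also occur in transcripts of other genes, mostly Gm19412, an antisense RNA at its start. The share was 14.3% for H2-D1 and 8.79% for H2-K1, whose words occur in each other and in H2-Q and H2-T genes. For Tap2 it was 12.6%, mostly in Gm15821, for Psmb9 12.5%, for Tap1 6.47% and for Psmb8 5.83%, and B2m, Nlrc5 and Psmb10 shared none. The mice were of mixed C57BL/6 and C3H SCID background, strains whose H2 alleles differ, and reads were aligned to the C57BL/6 genome. No file here gives the H2 alleles of each mouse, and their part in the heavy chain values was not tested.

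B2m (chr2:122147687-122153082, plus strand), the light chain shared by all class I molecules, had the highest TPM of the 10 genes in every sample. It was at 794, 1052 and 1063 CPM in castrated replicates 1, 2 and 3, and at 429 and 747 CPM in intact replicates 1 and 2. Castrated replicate 1 was only just above intact replicate 2, and intact replicate 1 was far below the other 4 samples. This gave a log2 fold change of 0.72 (SE 0.37), with an edgeR unadjusted p of 0.103 and adjusted p of 0.407. It was 0.40 without intact replicate 1 and 1.18 without intact replicate 2. The B2m gene lies inside the span of Patl2 on the opposite strand.

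Both transporter genes were higher in castrated samples at an unadjusted p, with little spread within groups. Tap1 (chr17:34187556-34197225, plus strand) was at 38.1, 45.5 and 43.3 CPM in castrated replicates 1, 2 and 3, and at 27.1 and 28.5 CPM in the intact replicates. Tap2 (chr17:34204479-34216321, plus strand) was at 51.4, 45.3 and 56.9 CPM, and at 28.7 and 32.3 CPM. For both genes the lowest castrated sample was well above the highest intact sample. The log2 fold change was 0.61 for Tap1 (SE 0.20, edgeR unadjusted p = 0.0273, adjusted p = 0.303) and 0.75 for Tap2 (SE 0.21, edgeR unadjusted p = 0.0142, adjusted p = 0.290). Without intact replicate 2 these were 0.65 and 0.84. When each replicate was left out in turn, Tap1 kept an unadjusted p under 0.05 in 1 of 5 cases, without castrated replicate 1, and Tap2 in 4 of 5, all but that without castrated replicate 3. In TPM, Tap1 was at 0.625 to 0.848 times the level of Tap2 in all 5 samples.

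Tapbp (chr17:33919478-33929290, plus strand) overlapped between groups. It was at 262, 295 and 272 CPM in castrated replicates 1, 2 and 3, and at 273 and 223 CPM in the intact replicates, and intact replicate 1 lay among the castrated samples. For Tapbp the log2 fold change was 0.15 (SE 0.20), with an edgeR unadjusted p of 0.477 and adjusted p of 0.747. It was 0.33 without intact replicate 1 and 0.02 without intact replicate 2. Tapbp was 6.74 to 7.36 times the TPM of Tap1 in castrated samples, and 10.8 and 8.41 times in intact replicates 1 and 2. Those ratios did not overlap between the groups.

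Nlrc5 (chr8:94472763-94527272, plus strand) had the lowest TPM of the 10 genes in every sample, with counts from 155 to 271. It was at 8.07, 12.5 and 13.1 CPM in castrated replicates 1, 2 and 3, and at 12.1 and 7.18 CPM in intact replicates 1 and 2. Castrated replicate 1 and intact replicate 2 were low and the other 3 were alike, so that the groups overlapped. The log2 fold change was 0.22 (SE 0.40), with an edgeR unadjusted p of 0.610 and adjusted p of 0.826, and it turned to -0.11 without intact replicate 2 and was 0.66 without intact replicate 1. Transcript levels of Nlrc5 overlapped between groups and those of H2-K1 did not. The part of Nlrc5 in the H2-K1 values was not tested.

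The immunoproteasome genes varied among samples of the same group. Psmb8 (chr17:34198195-34201454, plus strand), which encodes the induced subunit β5i, was at 36.4, 59.0 and 64.8 CPM in castrated replicates 1, 2 and 3, and at 18.4 and 36.2 CPM in intact replicates 1 and 2. Castrated replicate 1 was above intact replicate 2 by a margin that another scaling removed. Its log2 fold change was 0.97 (SE 0.41), with an edgeR unadjusted p of 0.0617 and adjusted p of 0.351. Psmb9 (chr17:34182099-34187330, minus strand), the gene of β1i, was at 12.4, 14.9 and 19.2 CPM, and at 5.54 and 14.3 CPM. Psmb10 (chr8:105935728-105938392, minus strand), the gene of β2i, was at 18.6, 25.3 and 33.1 CPM, and at 14.0 and 22.6 CPM. For all 3 genes castrated replicate 1 was the lowest castrated sample and intact replicate 1 the lowest of all. The log2 fold change was 0.65 for Psmb9 (SE 0.49, edgeR unadjusted p = 0.239, adjusted p = 0.566) and 0.49 for Psmb10 (SE 0.37, edgeR unadjusted p = 0.241, adjusted p = 0.568). All 3 values rested on which intact sample was used. Without intact replicate 1 they were 0.58 for Psmb8, 0.14 for Psmb9 and 0.20 for Psmb10, and without intact replicate 2 they were 1.54, 1.49 and 0.88. Psmb10 was also lower, at 0.27, without castrated replicate 3.

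**Figure D2:**
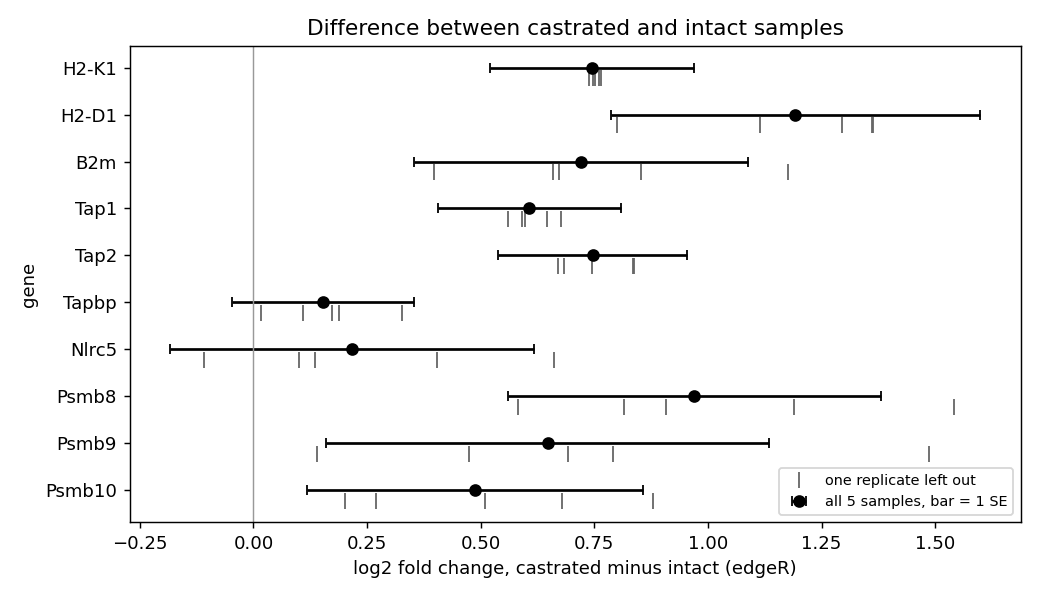
Log2 fold change of castrated against intact samples for each gene, with bars of 1 SE, and ticks for the value when 1 replicate was left out. H2-K1, Tap1 and Tap2 have ticks close to their points, while those of B2m, Psmb8 and Psmb9 are widely spread and one of Nlrc5 lies below 0.

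Psmb9 and Tap1 are neighbors that point away from each other, with 225 bases between their starts, and 163 of the 50-base words of the Tap1 transcript also occur in Psmb9 transcripts. Psmb8 starts 969 bases beyond the end of Tap1, and Tap2 lies 3024 bases beyond Psmb8. Counts of these genes are uncertain where transcripts overlap, since the strand setting of the counting is not stated. Within this cluster, Tap1 and Tap2 were separate between groups, Psmb8 was so by a small margin, and Psmb9 was not.

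The constitutive catalytic subunits had log2 fold changes within 1 SE of 0. These were 0.30 for Psmb5 (SE 0.36), 0.01 for Psmb6 (SE 0.18) and -0.06 for Psmb7 (SE 0.21), and 0 of 3 had an unadjusted p under 0.05. With intact replicate 2 left out they were 0.23, 0.05 and -0.22. The induced subunits were set against the subunits they replace as a ratio of TPM within each sample. Psmb8 was 0.628, 1.79 and 2.18 times Psmb5 in castrated replicates 1, 2 and 3, and 0.535 and 1.17 times in intact replicates 1 and 2. Psmb9 was 0.150, 0.163 and 0.264 times Psmb6, and 0.0696 and 0.170 times. Psmb10 was 0.120, 0.204 and 0.274 times Psmb7, and 0.0901 and 0.185 times. Intact replicate 1 had the lowest of each ratio and castrated replicate 3 the highest, and the groups overlapped in all 3. The log2 ratio differed by 0.77 for Psmb8 to Psmb5, 0.78 for Psmb9 to Psmb6 and 0.55 for Psmb10 to Psmb7, with two-sided exact permutation p of 0.4, 0.6 and 0.4. The smallest p that 3 against 2 samples allow is 0.2.

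**Figure D3:**
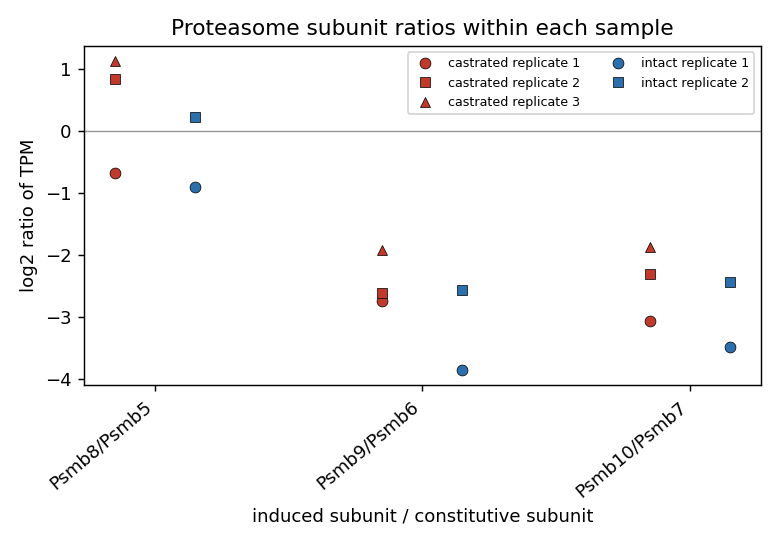
Log2 ratio of the TPM of each induced proteasome subunit to that of the constitutive subunit it replaces, with 1 point per sample. Castrated replicate 1 lies between the intact samples in each ratio, and only Psmb8 exceeds its partner in any sample.

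Other genes of the pathway were examined in lists. Of 17 other class I chains tested, 0 were lower at an unadjusted p under 0.05 and 7 were higher. Of all genes tested, 6.28% were lower and 8.74% higher. The median log2 fold change of the 17 chains was 1.11. That median was 1.14 without intact replicate 2 and 1.40 without intact replicate 1. Without castrated replicate 2 it was 0.79, and 3 were higher, where 4.95% of all genes were. Without castrated replicate 3 it was 0.73, and 3 were higher, where 4.42% of all genes were. Fcgrt, the neonatal Fc receptor that carries IgG, was at 87.0, 81.9 and 124 CPM in castrated replicates 1, 2 and 3, and at 36.3 and 21.6 CPM in the intact replicates (log2 fold change 1.76, SE 0.34, edgeR unadjusted p = 0.00296, adjusted p = 0.289). H2-M3, which presents formylated peptides, was at 9.53, 18.8 and 13.5 CPM, and at 5.36 and 4.68 CPM (log2 fold change 1.47, SE 0.41, adjusted p = 0.290). Both were separate between groups, as were H2-M2 and H2-Q7, with log2 fold changes of 3.93 and 1.39. Every castrated sample was above both intact samples for 11 of the 17 chains, where 17.0% of all genes tested had this order. DESeq2 called Fcgrt, H2-M2, H2-M3 and H2-Q7, with adjusted p of 0.000915, 0.000327, 0.0214 and 0.0415. The likelihood ratio test called Fcgrt (0.0162) and H2-M2 (0.0102). H2-T23, the most abundant of these chains, was at 197 CPM in intact replicate 2, above every castrated sample. H2-Q10, which was chosen after its values were seen, was at 218 CPM in castrated replicate 3 and between 0.926 and 3.10 CPM in the others.

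Beside Tap1, Tap2 and Tapbp, a list of 12 other genes of peptide supply and loading was examined. Of these, 0 had an unadjusted p under 0.05 and the median log2 fold change was -0.05, or -0.10 without intact replicate 2. The median was -0.13 without castrated replicate 1. It turned to 0.069 without intact replicate 1 and to 0.0078 without castrated replicate 3. The chaperone Calr had a log2 fold change of 0.21, Canx -0.06, the thiol oxidoreductase Pdia3 -0.05 and the trimming peptidase Erap1 0.01. The peptidase genes Thop1 and Ide had log2 fold changes of -0.49 (edgeR unadjusted p = 0.0828) and -0.29 (edgeR unadjusted p = 0.195). Thop1 and Ide had every castrated sample below both intact samples, and Calr had every one above. These were 2 and 1 of the 12 genes, where 16.1% and 17.0% of all genes tested had these orders. Ide ranged from -0.43 to -0.11 and Calr from 0.13 to 0.30 when 1 replicate was left out. The proteasome activator genes Psme1, Psme2 and Psme3 had log2 fold changes of 0.08, -0.32 and -0.21. With 1 replicate left out, Psme3 ranged from -0.33 to -0.055. Psme1 turned to -0.27 without intact replicate 1, where Psme2 was -0.66 with an unadjusted p of 0.0369, and to -0.018 without castrated replicate 3. Psme2 turned to 0.15 without intact replicate 2, and the median of the 3 genes, -0.21, turned to 0.15 without intact replicate 2. Of all genes tested, 6.28% were lower and 8.74% higher at an unadjusted p under 0.05. Of 11 other subunits of the 20S core, 3 were lower at this threshold and 0 were higher, with a median of -0.34. Without castrated replicate 2, castrated replicate 3 or intact replicate 2, 1 was lower, and without intact replicate 1, 2 were. The median was also -0.34 with intact replicate 2 left out. Psma5 was at 114, 91.4 and 79.2 CPM in castrated replicates 1, 2 and 3, and at 161 and 176 CPM in intact replicates 1 and 2 (log2 fold change -0.83, SE 0.22, edgeR unadjusted p = 0.0106, adjusted p = 0.290). Psma7 and Psma3 had log2 fold changes of -0.63 and -0.61.

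**Figure D4:**
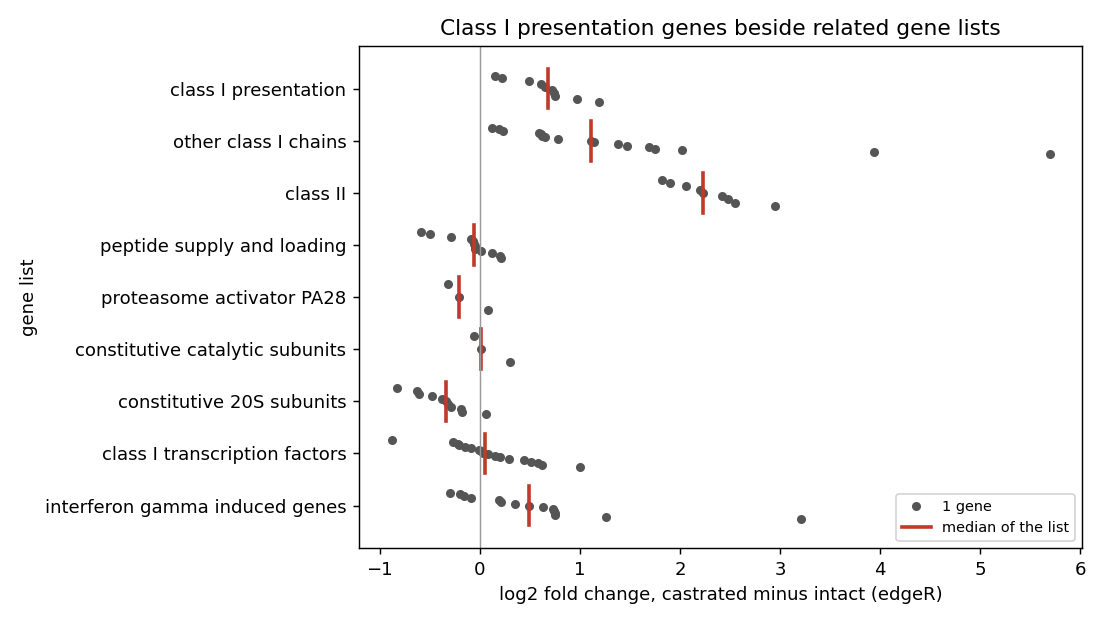
Log2 fold change of castrated against intact samples for each gene of 9 lists, with the median of each list as a red line. The 10 class I genes all lie above 0 with a median of 0.68, the class II genes lie further to the right with a median of 2.23, and the loading and constitutive proteasome genes lie around or below 0.

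With all samples, regulators of class I genes passed an unadjusted p no more often than all genes did. Of 18 transcription factors and chromatin regulators tested, 0 were higher and 1 was lower at an unadjusted p under 0.05, where 8.74% and 6.28% of all genes were. With 1 replicate left out, 0 to 2 were higher (2 without castrated replicate 1) and 1 to 2 were lower (2 without intact replicate 2). The gene lower with all samples was Ezh2, the histone methyltransferase of the polycomb complex. It was at 29.8, 26.0 and 26.8 CPM in castrated replicates 1, 2 and 3, and at 43.8 and 57.5 CPM in the intact replicates. Its log2 fold change was -0.88 (SE 0.22), with an edgeR unadjusted p of 0.00866 and adjusted p of 0.290. Irf1, a factor of the interferon response, had a log2 fold change of 0.62 with an edgeR adjusted p of 0.366. Irf8, a factor of macrophages and B cells, was at 33.2, 87.7 and 58.0 CPM, and at 32.3 and 27.1 CPM, with an adjusted p of 0.356. For both genes every castrated sample was above both intact samples, by a small margin for castrated replicate 1. This order was held by 4 of the 18 genes and by 17.0% of all genes tested. Rfx5, a subunit of the complex that NLRC5 works with, had a log2 fold change of 0.03.

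Interferon gamma itself was hardly seen. Ifng was at 0.0485 CPM or less in every sample and was not tested. Of 9 genes tested from a list of interferon receptors, kinases and inhibitors of both the gamma and the type I pathway, 2 were higher at an unadjusted p under 0.05. These were Jak1, a kinase that both pathways use (log2 fold change 0.96), and the type I receptor subunit Ifnar2 (0.91). Without intact replicate 2, 1 was higher. Of 15 interferon gamma induced genes, 2 were higher, with a median of 0.49. Of all genes tested, 8.74% were higher at this threshold. The median of the 15 genes was 1.09 without intact replicate 1 and 0.09 without intact replicate 2. The count was 1 without castrated replicate 2 (where 4.95% of all genes were higher) or castrated replicate 3 (4.42%). Without castrated replicate 1, 1 gene was lower. The genes higher with all samples were the serpin Serpina3g, at 29.4, 26.3 and 32.8 CPM in castrated replicates 1, 2 and 3 and at 11.7 and 13.0 CPM in the intact replicates, and the ubiquitin-like modifier Ubd, with a log2 fold change of 3.21 (SE 1.21) that was 2.21 without castrated replicate 3 and 4.90 without intact replicate 2. DESeq2 called Serpina3g.

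Some markers of other cells were also higher in castrated samples at an unadjusted p, and 0 had an adjusted p under 0.05 in edgeR's quasi-likelihood test. The counts below are to be read beside the share of all genes tested at an unadjusted p under 0.05, 8.74% higher and 6.28% lower. Class II genes were summed to 1376, 2131 and 2645 CPM in castrated replicates 1, 2 and 3, and to 173 and 651 CPM in intact replicates 1 and 2, and 7 of 9 were higher at an unadjusted p under 0.05, with Cd74 the most abundant. The likelihood ratio test called Cd74, and DESeq2 called Cd74, H2-DMa, H2-DMb1 and H2-Oa among the class II genes named by the rule. Pan-leukocyte genes were summed to 600 CPM in castrated replicate 1, 2132 in replicate 2 and 1242 in replicate 3, and to 282 and 598 CPM in the intact replicates. Of these, 4 of 6 were higher and Lcp1 was the most abundant. Castrated replicate 1, the lowest castrated sample for 8 of the 10 class I genes, was level with intact replicate 2 in this sum. The genes behind it differed, as Lcp1 was at 218 CPM in castrated replicate 1 and 330 CPM in intact replicate 2, while Laptm5 was at 168 and 82.4 CPM and Cd53 at 93.3 and 52.0 CPM. Of the 10 macrophage markers 9 were higher, as were 5 of 6 B cell and 5 of 5 smooth muscle markers. Adipocyte markers, of which 4 of 7 were higher, were summed to 49.0 CPM in castrated replicate 1, 609 and 557 CPM in replicates 2 and 3, and 41.6 and 59.7 CPM in the intact replicates, with Fabp4 the most abundant. Higher at this threshold were also 3 of 6 fibroblast, 2 of 7 endothelial, 1 of 7 dendritic cell and 1 of 4 neutrophil markers. Neither T cell markers (0 of 9) nor NK and cytotoxic cell markers (0 of 6) passed in either direction. Of 8 epithelial markers 0 did, with a median log2 fold change of -0.26, or -0.31 without intact replicate 2. The epithelial median was -0.14 without castrated replicate 2 or without intact replicate 1. These counts depended on single samples. Leaving out an intact replicate left 1 intact sample, so medians alone are given for it. With all samples, the median log2 fold changes of class II, pan-leukocyte, macrophage and B cell markers were 2.23, 1.61, 1.49 and 4.44. They were 1.69, 1.24, 1.44 and 3.83 without intact replicate 1, and 4.08, 2.27, 1.65 and 5.97 without intact replicate 2. The T cell median was 1.04 with all samples, 0.33 without intact replicate 1 and 3.46 without intact replicate 2. In the same order, the endothelial median was 0.54, 1.12 and -0.01, and that of NK and cytotoxic cell markers was 0.11, -0.54 and 1.54. The fibroblast median was 0.81, 1.32 and 0.51, that of smooth muscle 2.88, 3.38 and 2.49, and that of adipocyte markers 9.19, 8.88 and 10.9. Without castrated replicate 2 or castrated replicate 3, 2 of 6 pan-leukocyte markers were higher, where 4.95% and 4.42% of all genes were. Class II genes that were higher numbered 4 of 9 without castrated replicate 2 and 5 of 9 without castrated replicate 3. With castrated replicate 1 left out, 3 of 9 T cell and 0 of 7 endothelial markers were higher, where 10.7% of all genes were. The part of these cells in the class I values was not tested.

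**Figure D5:**
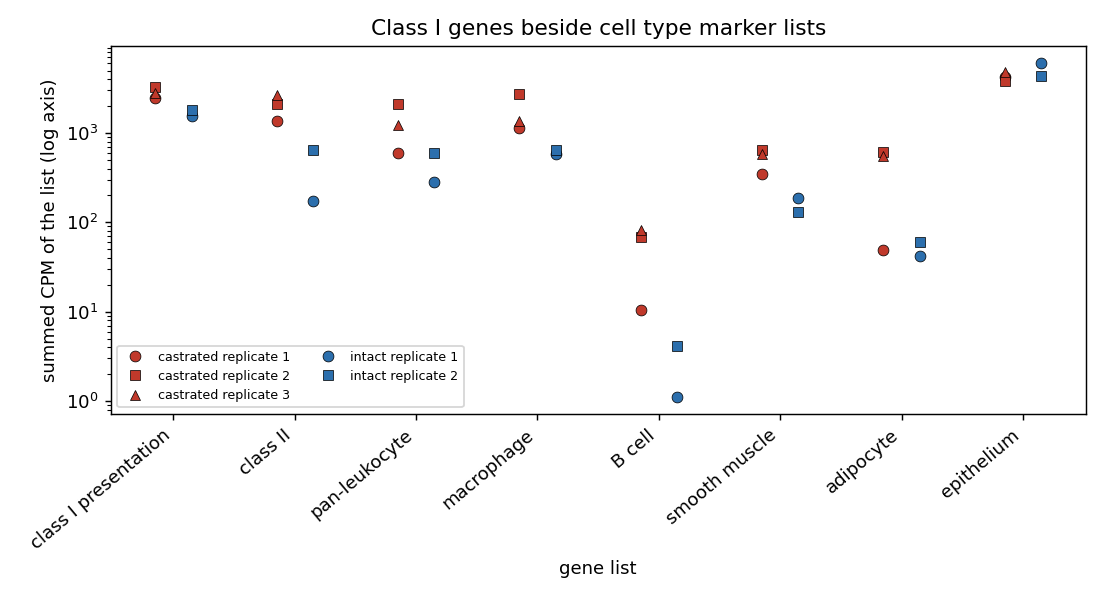
Summed CPM, on a log axis, of the class I genes and of 7 lists in each sample, with 1 point per sample. The class I genes span a narrower range between samples than the class II, leukocyte, B cell and adipocyte lists.

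Within samples, the 10 genes kept a nearly fixed order of TPM. B2m came first and Nlrc5 last in each of the 5 samples, with the heavy chains, Tapbp and Psmb8 following B2m. Only H2-K1 and H2-D1, and the genes between Psmb8 and Nlrc5, changed places. Across the 5 samples, the tested genes outside the lists whose centered log2 CPM was most like the mean of the class I genes were Slfn8, Sirt2, Fas, Gnpda1 and Papss1, with root-mean-square differences of 0.043 to 0.070. With 5 samples many genes can lie this close, and the likeness is a description.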

How the data were processed

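RNA-seq libraries of 3 castrated and 2 intact TripleTg mice were grouped by their titles, and all 5 were used. The authors depleted ribosomal RNA. The submitters' processing notes name Trimmomatic 0.39 for trimming of the paired-end reads, STAR 2.7.9 for alignment to mm10 and HTSeq 2.0.2 for counting per gene. The deposited values are raw counts, and the strand setting is not given in the sources used here. The deposited gene length, in kilobases, was used only for TPM. P-values measure the spread between these mice.

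Counts were analyzed with R 4.3.3 and edgeR 4.0.16. The quasi-likelihood F-test was run on the genes that exceeded a CPM of 1 in 2 or more samples, after TMM scaling, and p-values were adjusted by Benjamini-Hochberg over all of them. The newer form of this fit was used, a choice made after both forms had been run, because it matched an earlier analysis of these counts. The older form also called 0 genes. It left 4 of the 10 members higher at an unadjusted p under 0.05, where 8.29% of all genes were. Limma 3.58.1 (voom), DESeq2 1.42.0, the likelihood ratio test, other scalings and filters, a replicate block and leaving out each replicate were alternatives. Leaving out replicates in the counts over gene lists was added after seeing the data. Ratios were compared by an exact permutation test (SciPy 1.17.1). The fits were tested on simulated counts. At the spread of these mice the quasi-likelihood test recovered the simulated fold changes but called none of the genes changed 4-fold or 8-fold, and it made calls in simulations added afterwards with larger changes or less spread. A lack of calls therefore does not show a lack of change. The members and lists were chosen with earlier results of these data known. Named genes were the 10 members, all catalytic and PA28 subunits, up to 4 genes per pathway list with an unadjusted p under 0.05 or separate groups (lowest p first), 9 fixed regulators and chaperones, and the 5 genes most like the members. Genes of the marker lists were named as checks of cell content. Some genes of these lists are not reported here, though they remain in the counts. Coordinates are mm10 and count from 1.

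Same-numbered samples are different mice. The chi-square per gene between samples of one group was 133 or more, so no library was repeated.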

Additional observations from a re-analysis of the deposited data

How the results depend on the processing

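All 10 class I genes kept a log2 fold change above 0 under the 17 alternatives, except Nlrc5, which ranged from -0.11 (without intact replicate 2) to 0.66 (without intact replicate 1). None passed both thresholds under any alternative. DESeq2 called 989 genes. With it, H2-K1 (adjusted p = 7.37e-06), Tap1 (0.0494) and Tap2 (0.0201) had an adjusted p under 0.05 with a log2 fold change under 1. At an unadjusted p under 0.05, 6 of the 10 were higher with DESeq2, where 12.1% of all genes were. The likelihood ratio test called 369 genes. At an unadjusted p under 0.05 it left 2 of the 10 higher, where 9.82% of all genes were. With the replicate block, 0 genes were called and 0 of the 10 class I genes had an unadjusted p under 0.05. Of all genes, 5.32% were higher at this threshold with the block. Deviations of same-numbered samples correlated at 0.149 for replicate 1 and -0.045 for replicate 2, so that the samples share only a number. When each replicate was left out, 0 to 1 genes were called (Coch, without intact replicate 1), 1 to 5 class I genes had an unadjusted p under 0.05 (1 without castrated replicate 3, 2 without castrated replicate 2 or intact replicate 1), 6 to 9 were separate between groups (9 without castrated replicate 1, where 25.2% of all genes were, 6 without castrated replicate 2 (19.97%) or 3 (19.2%), and 8 without intact replicate 1 (36.4%) or 2 (35.3%)), and their median log2 fold change was 0.59 to 0.86. Without intact replicate 2, which stood apart, the median was 0.86 and 5 had an unadjusted p under 0.05. The difference in log2 ratio ranged from 0.21 to 1.33 for Psmb8 to Psmb5, from 0.13 to 1.42 for Psmb9 to Psmb6 and from 0.03 to 1.06 for Psmb10 to Psmb7. The log2 fold change ranged from 0.58 to 1.54 for Psmb8, from 0.14 to 1.49 for Psmb9, from 0.20 to 0.88 for Psmb10, from 0.40 to 1.18 for B2m and from 0.02 to 0.33 for Tapbp.

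Other named genes with small differences turned in direction. With the replicate block, log2 fold changes were 0.010 for Psmb7, 0.016 for Canx, 0.012 for Pdia3 and -0.12 for Erap1. With 1 replicate left out, they ranged from -0.060 to 0.49 for Psmb5, from -0.062 to 0.10 for Psmb6, from -0.22 to 0.14 for Psmb7, from -0.21 to 0.087 for Canx, from -0.18 to 0.079 for Pdia3, from -0.27 to 0.58 for Psme1, from -0.66 to 0.15 for Psme2, from -0.13 to 0.25 for Rfx5, and from -0.13 to 0.20 for Erap1. The cause was not tested. Counts of the 10 genes ranged from 124 to 22829 per sample.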
